A study of Homo sapiens with 12 samples.

Results

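In MDA-MB-231 cells exposed to nitric oxide, regions carrying acetylated lysine 9 of histone H3 (H3K9ac) were set against the islands carrying the dimethylated form of the same lysine (H3K9me2). The members are all called regions of the treated cells: the peaks of 2 H3K9ac libraries, the reproducible H3K9ac set the authors built from both, and the islands of 2 H3K9me2 libraries. They number 194931 of the 416692 regions deposited for the series. Of these, 79538 and 69151 are H3K9ac peaks of treated replicates 1 and 2, 21098 are reproducible H3K9ac regions, and 14554 and 10590 are H3K9me2 islands of treated replicates 1 and 2.

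MDA-MB-231 is an established human triple negative breast cancer line. The treated cells were serum starved overnight and then given 500 µM DETA/NO, a donor that releases nitric oxide slowly, for 24 h. The untreated controls carry the same culture protocol in the labels and received no donor. Each mark was measured by chromatin immunoprecipitation and sequencing in 2 replicate libraries per condition, and the input libraries were not analysed here. All values come from 1 cell line.

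A lysine can carry acetyl groups or methyl groups on its side chain amine, but not both on the same residue at once. H3K9ac is written by acetyltransferases such as GCN5 and PCAF and is found at the promoters of active genes and at active enhancers. H3K9me2 is written mainly by the methyltransferases G9a and GLP, is removed by demethylases of the KDM3 family among others, and covers broad domains of silent chromatin. The deposited lists give where each mark was called and not how much of it there was, and the read depth behind them is not given in the sources used here. A stretch without a call is therefore one where no call was made.

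On chromosomes 1 to 22 and X, the reproducible H3K9ac set held 21096 regions that covered 39.3 Mb, with a median width of 1571 bp. The islands covered 285 Mb in replicate 1 and 226 Mb in replicate 2, which is 9.67% and 7.68% of the span between the outermost called bases. Their median widths were 13.5 and 14 kb. The 2 island lists differed: 128 Mb were called in both, which is 45.1% of the bases of replicate 1 and 56.8% of those of replicate 2. Each result is therefore given against both island libraries, as 2 values or as a mean ± SD (n = 2). Chromosome 13 held no island in either library, and its 350 reproducible H3K9ac regions have no distance to one.

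Reproducible H3K9ac regions almost never met an H3K9me2 island. Of 21096 regions, 36 shared at least 1 bp with an island of replicate 1, a share of 0.171% (Wilson 95% interval 0.123 to 0.236%). Against replicate 2 there were 23, a share of 0.109% (0.0727 to 0.164%). The mean over both island libraries was 0.140% ± 0.0436 (SD, n = 2), while the islands took 9.67% and 7.68% of the span. These intervals, like all that follow, cover counting error only. Regions that met islands of both libraries numbered 6.

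The 2 island libraries differed in how the overlap arose. Of the 36 regions that met islands of replicate 1, 26 crossed an island's edge, 22 of them with no more than 500 bp inside, which is 1 step of the grid on which the islands were called. Only 10 lay wholly inside. Of the 23 that met islands of replicate 2, 17 lay wholly inside and 6 crossed an edge. The overlapping regions had a median width of 1838 bp against replicate 1 and 1030 bp against replicate 2.

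The 6 regions that met islands in both libraries lay on chromosomes 6, 8 and 20. Inside the islands of both libraries lay chr6:50783335-50784289, chr6:39759834-39760658 and chr6:39901672-39902545, which are 955, 825 and 874 bp wide. The best peak within the first had a score of 56.3 in H3K9ac replicate 1 and 30.9 in replicate 2, so it was not a marginal call in either. The third was the weakest of the 6, with best peaks of 11.9 and 7.66. The other 3 met an edge in at least one library. chr8:107668896-107671804 reached 105 and 605 bp into the islands, chr6:28983881-28985257 reached 257 bp into both, and chr20:29611220-29613523 reached 1023 bp into an island of replicate 1 and lay wholly within one of replicate 2.

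Most H3K9ac lay far from any island. Among the regions that met none, the median distance to the nearest island edge was 1002 kb for replicate 1 and 1352 kb for replicate 2. For 10% of them it was at most 84.2 and 144 kb. Regions within 2 kb of an edge, without overlap, numbered 162 (0.768%) and 77 (0.365%), and those within 10 kb numbered 406 (1.92%) and 187 (0.886%).

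Densities take account of how much sequence lies at each distance. They are counts of region midpoints per Mb inside islands, in the edge zone (up to 10 kb outside an island), and in the far zone (more than 100 kb from an island on the chromosomes that have one). For the reproducible set the density was 0.0551 ± 0.0283 per Mb inside, 1.57 ± 0.565 in the edge zone and 9.75 ± 0.309 in the far zone (mean ± SD, n = 2 island libraries). The inside value rests on 10 and 17 midpoints. The edge zone held 0.160 ± 0.0529 of the far density and the inside 0.00570 ± 0.00309 of it. H3K9ac was therefore sparse both in the islands and in the flanks next to them.

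The single H3K9ac libraries kept the order of the zones, with less contrast. Peaks of H3K9ac replicate 1 had 2.10 ± 0.127 midpoints per Mb inside, 6.47 ± 1.70 in the edge zone and 36.2 ± 1.03 in the far zone. Peaks of replicate 2 had 8.24 ± 1.25, 10.6 ± 0.816 and 29.5 ± 0.900 (n = 2 island libraries each). The inside density was 0.0580 of the far density in replicate 1 and 0.280 in replicate 2, so the 2 libraries of the same treatment differed more from each other than either did between island libraries.

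**Figure D1:**
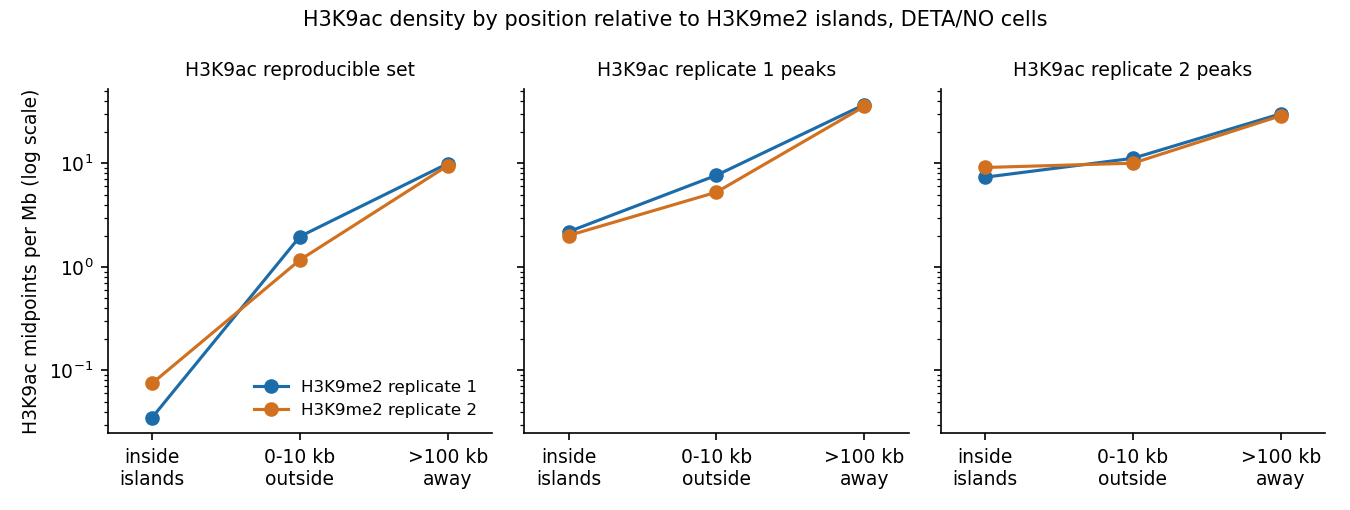
H3K9ac midpoints per Mb (log axis) inside islands, up to 10 kb outside and more than 100 kb away, for the reproducible set and the peaks of each H3K9ac replicate, with 1 line per H3K9me2 replicate. The reproducible set falls from 9.75 per Mb far away to 0.0551 inside on average, while replicate 2 falls from 29.5 to 8.24.

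The density did not climb evenly from the edge outward. Outside islands of replicate 1 it was 1.20 per Mb in the first kb, 3.69 at 1 to 2 kb, 2.32 at 2 to 5 kb and 1.47 at 5 to 10 kb. It then went up through 2.07, 3.35 and 5.56 per Mb at 10 to 20, 20 to 50 and 50 to 100 kb, to 12.4 at 500 to 1000 kb. Outside islands of replicate 2 the first 4 bands gave 0.614, 2.76, 1.33 and 0.801 per Mb, followed by 1.52, 2.23 and 4.12. Both libraries thus had a local high at 1 to 2 kb and a low at 5 to 10 kb, before a long climb that was still going on past 100 kb. Beyond 10 Mb from an island the density was lower again, at 7.35 and 7.88 per Mb.

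A region with its midpoint in the first kb can reach into the island, so covered bases were counted as well, in steps of 500 bp. The share of bases in a reproducible H3K9ac region was highest at 1.5 to 2 kb among the first 5 kb outside the edge, at 0.572% for replicate 1 and 0.338% for replicate 2. In the first 500 bp outside the edge it was 0.158% and 0.0664%. Between 5 and 20 kb from the edge it was lowest at 6 to 6.5 kb (0.237%) and at 5.5 to 6 kb (0.112%), and the high was 2.42 and 3.0 times that low. In the first 500 bp inside the edge it was 0.0412% and 0.0192%. The peaks of each single H3K9ac library also had their high at 1.5 to 2 kb for both island libraries, 2.14 to 2.61 times their low between 5 and 20 kb.

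Chromosomes 6 and 8, picked out after their values were seen, held more regions next to edges than their share of edges, more so for replicate 2. Chromosome 6 had 19 of the 162 regions within 2 kb of islands of replicate 1 and 23 of the 77 for replicate 2, with 2.34% and 3.89% of the island edges. Chromosome 8 had 20 and 17 of them, with 4.22% and 5.75% of the edges. Without these chromosomes the share at 1.5 to 2 kb was 0.457% and 0.163% of bases, and the ratio to the low was 1.88 and 1.67. Such a ratio, here and above, sets a highest step over a lowest one, so unevenness alone can lift it above 1. For replicate 2 this step no longer stood out in covered bases. The step centred at 3.25 kb had 0.160%, and those centred at 8.75 to 9.75 kb had 0.176 to 0.178%. For midpoints, the bands at 1 to 2 kb and 5 to 10 kb without them were 2.70 and 1.41 per Mb for replicate 1, and 1.47 and 0.692 for replicate 2, the first of these 4 resting on 63 regions and the third on 24.

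**Figure D2:**
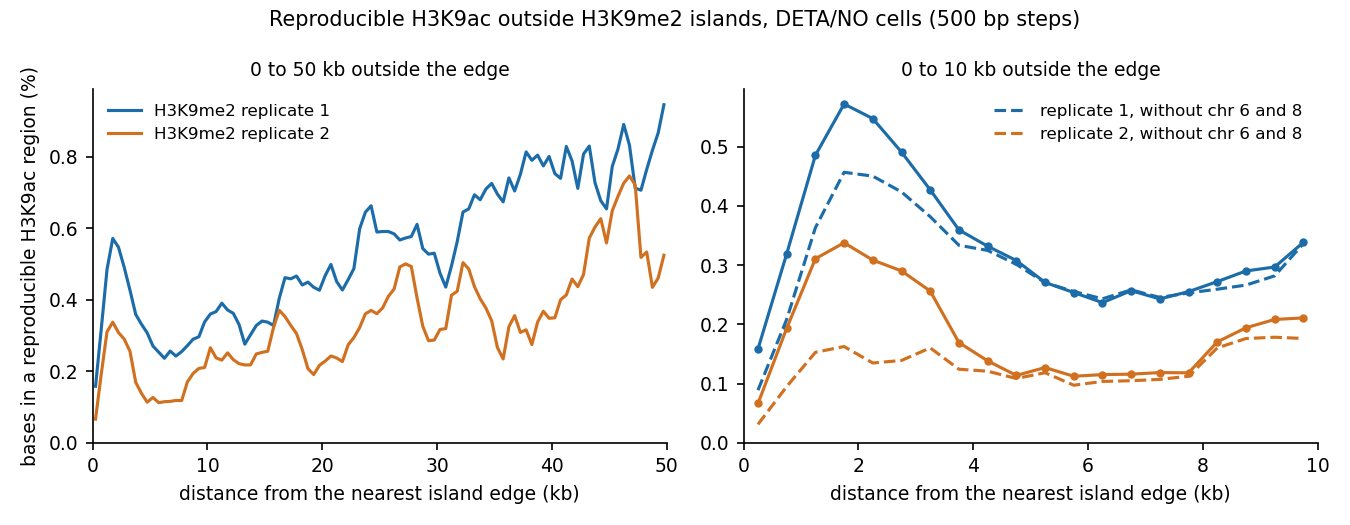
Percent of bases in a reproducible H3K9ac region against distance outside the nearest island edge (kb), in steps of 500 bp, out to 50 kb (left) and 10 kb (right). Solid lines are all chromosomes and dashed lines leave out chromosomes 6 and 8; the solid lines peak at 1.5 to 2 kb at 0.572% and 0.338%, the dashed ones there at 0.457% and 0.163%.

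By chromosome, the edge density was below the far density on 21 of the 22 chromosomes with islands, for both island libraries. The inside density was below the far density on 22 of 22. No reproducible midpoint lay inside an island on 18 and 16 of them. These counts include chromosomes with very little island sequence, such as chromosome 22 with 0.0327% of its span in islands of replicate 1.

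The exception at the edges was chromosome 6. Its edge density was 11.3 and 9.48 per Mb for the 2 island libraries, against 8.33 and 8.26 in its far zone, so the edge zone held 1.35 and 1.15 times the far density. The edge values rest on 38 and 36 regions. At 1 to 2 kb outside the islands of chromosome 6 the density reached 29.9 and 34.9 per Mb. Chromosome 8 had 4.52 and 3.54 per Mb at the edges against 6.16 and 6.33 far away. Without chromosome 6 the edge zone held 0.180 and 0.0992 of the far density, and without both chromosomes 0.165 and 0.0839.

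The islands of chromosome 6 were also unlike the others. Their median width was 62.5 kb in replicate 1 and 46.3 kb in replicate 2, against 13.5 kb on the other chromosomes in both, and they left an edge zone of only 3.37 and 3.80 Mb beside 29.0 and 29.4 Mb of islands. Of the 36 and 23 regions that met an island, 14 and 12 lay on chromosome 6. Without that chromosome the mean share of regions in islands was 0.0830% ± 0.0391 in place of 0.140%, and the inside held 0.00289 ± 0.00189 of the far density in place of 0.00570 (SD, n = 2). Set against the islands of the untreated cells, the treated reproducible regions of chromosome 6 again had a higher edge than far density, 1.21 and 1.23 times.

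**Figure D3:**
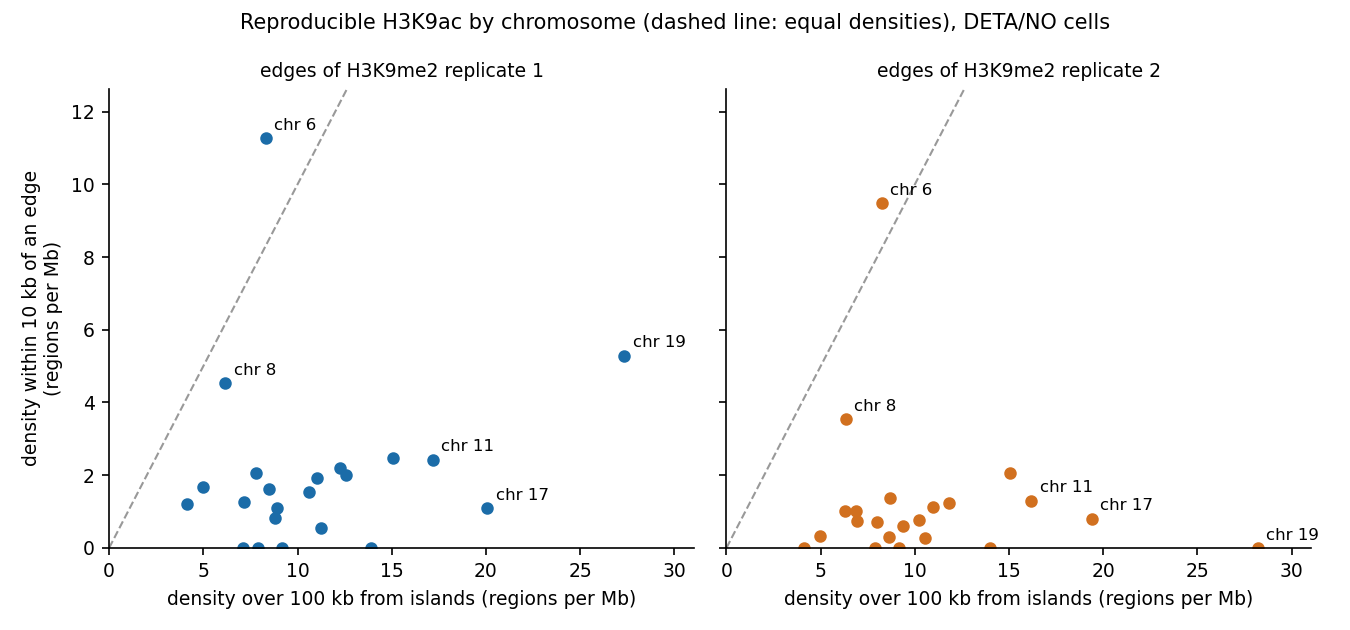
Density of reproducible H3K9ac regions within 10 kb of an island edge against density more than 100 kb away, both per Mb, with 1 point per chromosome and 1 panel per H3K9me2 replicate. Chromosome 6 is the 1 point above the dashed line of equal densities, at 11.3 against 8.33 and 9.48 against 8.26.

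Of the regions within 2 kb of an island, 33 were that close in both island libraries. Of the 162 close to an island of replicate 1, 5 overlapped an island of replicate 2 and 47 were more than 100 kb from one. Of the 77 close to an island of replicate 2, 10 overlapped an island of replicate 1 and 6 were more than 100 kb from one. The island lay on the lower and on the higher coordinate side of the region about equally often, 88 and 89 times for replicate 1 and 34 and 46 times for replicate 2, including 15 and 3 regions with an island within 2 kb on both sides.

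The 10 highest-scoring of these 33 regions lay on chromosomes 1, 6, 7, 8 and 11, with reproducibility scores of 5.39 to 5.88 and widths of 1078 to 3171 bp. On chromosome 11, chr11:92929669-92931785 ended 215 bp before an island that began at the same place in both libraries, and its best peaks scored 105 and 97.0 in the H3K9ac libraries. On chromosome 7, chr7:21983296-21986215 began 295 bp after an island that ended at the same place in both, with best peaks of 118 and 107. At chr8:107281321-107284491, 3171 bp wide and the widest of the 10, the gap to the island was 9 bp in replicate 1 and 1509 bp in replicate 2. The highest score of the 10 was at chr11:123610969-123613146, with gaps of 854 and 1354 bp. At all 10 the gap to the island was less than the width of the H3K9ac region, in both libraries.

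Regions squeezed between islands were rarer still. With islands within 10 kb on both sides there were 41 regions for replicate 1 and 15 for replicate 2, and 5 for both libraries. The widest of the 5, chr8:110656051-110658236, is 2186 bp wide and lay 50 and 550 bp from the island on its lower side and 3764 bp from that on its upper side in both libraries. The others were chr18:37378918-37380782, chr1:216773682-216775349, chr6:70576796-70577817 and chr6:46458754-46459715. The last had 1253 and 785 bp to the islands of replicate 1 and 753 and 285 bp to those of replicate 2.

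Seen from the islands, H3K9ac at the border was the exception. An H3K9ac region lay within 2 kb of 198 of the 29106 island edges of replicate 1 (0.680%, 0.592 to 0.781%) and of 83 of the 21178 edges of replicate 2 (0.392%, 0.316 to 0.486%). Within 10 kb it was 435 edges (1.49%) and 192 edges (0.907%). Unlike the counts of regions above, these counts of edges include edges that an H3K9ac region crossed. Islands with H3K9ac within 10 kb on both sides numbered 16 and 4, and those with it on 1 side 403 and 184.

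Few islands held a reproducible region: 34 of 14553 in replicate 1 (0.234%) and 20 of 10589 in replicate 2 (0.189%). These were broad, with median widths of 55750 and 71500 bp against 13500 and 14000 bp for the islands without one. A broader island has more room to meet a region. Of the 36 and 23 regions that met an island, 14 and 12 also lay on chromosome 6, where islands were long. The part of width and of chromosome in this contrast was not tested. The stretches called as islands in both libraries numbered 7741, and 6636 of them (85.7%) held no H3K9ac peak of either treated library. The 5 widest of these all lay on chromosome 6: chr6:23365501-23661000 (295.5 kb), chr6:25729501-25961000 (231.5 kb), chr6:57205501-57423500 (218 kb), chr6:38727001-38931000 (204 kb) and chr6:69652001-69831000 (179 kb). In untreated cells the same 5 stretches were covered by islands over 70.6 to 100% of their length in replicate 1 and over 100% in replicate 2.

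Gaps between neighbouring islands were counted as well. Of the gaps of at most 20 kb, 67 of 6836 in replicate 1 (0.980%) and 20 of 4750 in replicate 2 (0.421%) held reproducible H3K9ac. An island of the other treated library spanned the whole gap in 2 of those 67 and 0 of those 20. Among the gaps without H3K9ac it did so in 19.8% of 6769 and 31.2% of 4730. An island that spans a gap overlaps any H3K9ac in it, and such overlap was rare everywhere. The low counts, and the cover given below, are therefore not independent of the overlap result. Gaps with H3K9ac were longer, with medians of 9 and 8.75 kb against 5.5 and 5 kb over all gaps of this class, and a longer gap is less often spanned. Among gaps of at most 5 kb, the share of a gap covered by the other library was averaged over gaps. For replicate 1 it was 11.9% over the 21 gaps with H3K9ac and 36.4% over the 3352 without. For replicate 2 it was 6.25% over 4 and 52.2% over 2443.

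Short gaps held H3K9ac more often on chromosome 6, and for replicate 1 on chromosome 8, than elsewhere. These chromosomes were picked out for their regions near edges in the same data. A region in a short gap is also near an edge, so this is not a separate result. On chromosome 6, 10 of 223 (4.48%, 2.45 to 8.06%) and 4 of 285 (1.40%, 0.547 to 3.55%) gaps of at most 20 kb did so. Chromosome 8 had 13 of 353 (3.68%, 2.16 to 6.20%) and 3 of 376 (0.798%, 0.272 to 2.32%). Off chromosomes 6 and 8 the shares were 0.703% (0.524 to 0.942%) and 0.318% (0.186 to 0.543%). Spanning was again rare there when H3K9ac was present, with the same tie to the rare overlap. It was found in 1 of 44 gaps with H3K9ac against 18.0% of those without for replicate 1, and in 0 of 13 against 28.6% for replicate 2. The gaps of chromosome 6 were short, with a median of 2.5 kb in both libraries. In gaps of 500 to 1000 kb, the share with H3K9ac was 84.2% and 82.1%.

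Island edges with H3K9ac beside or across them were found at the same place in the other treated library more often than other edges, when all chromosomes were pooled. An edge was counted as the same when the other library had an edge on the same side within 1000 bp. For replicate 1 this held for 38 of the 198 edges with H3K9ac within 2 kb, 19.2% (14.3 to 25.2%), and for 8.42% (8.10 to 8.74%) of all others. For replicate 2 it held for 36 of 83, 43.4% (33.2 to 54.1%), and for 11.5% of all others. Agreement of edges is mutual, so both libraries count largely the same matched edges over different totals. Their values are not 2 independent results. Edges with H3K9ac at 2 to 10 kb gave 7.59% and 17.4%. The intervals of this second class, 4.86 to 11.7% and 11.5 to 25.6%, met those of all other edges.

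This pooled difference depended on the chromosome for replicate 1. On chromosome 6, 53.1% of 32 close edges and 29.3% of 648 others were found again for replicate 1, and 55.6% of 27 and 24.1% of 797 for replicate 2. Without chromosomes 6 and 8 the values for replicate 1 were 9.29% of 140 close edges (5.51 to 15.2%) and 7.68% of 27058 others, which cannot be told apart at these counts. For replicate 2 they were 33.3% of 39 (20.6 to 49.0%) and 10.9% of 19097. Off chromosomes 6 and 8 the number of close edges found again was 13 for each island library. The shares of close edges therefore differ through the number of close edges in each library.

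The score of a reproducible region did not order its distance to the islands. The score is the authors', read as the negative log10 of an irreproducible discovery rate, and regions were ranked by it into 5 groups (quintiles) of 4219 or 4220. From the lowest to the highest quintile, the share within 10 kb of an island without overlap was 1.47, 2.56, 1.83, 2.01 and 1.75% for replicate 1. It was 0.901, 1.26, 0.924, 0.664 and 0.687% for replicate 2. The second quintile was the highest for both libraries, with an interval of 2.12 to 3.08% for replicate 1 that did not meet that of the lowest quintile (1.15 to 1.88%). The lowest and the highest quintile differed by -0.0353 percentage points on average, and the sign of this difference was not the same for the 2 island libraries. Median distances over the quintiles ranged from 877 to 1133 kb for replicate 1 and from 1226 to 1480 kb for replicate 2, with no order by score.

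Against islands of replicate 1, width gave a flat middle and low ends. From the narrowest to the widest quintile, with median widths of 511 to 3560 bp, the share within 10 kb was 1.42, 2.23, 2.35, 2.25 and 1.37% for replicate 1. For replicate 2 it was 0.806, 1.11, 0.901, 1.09 and 0.521%. The widest quintile was the lowest for both libraries. For replicate 1 its interval, which ended at 1.77%, lay below those of the 3 middle quintiles, while for replicate 2 its interval of 0.345 to 0.788% met that of the third quintile (0.657 to 1.23%). Within 3 equal groups by width, the higher-scoring regions had the larger share in 3 of 3 groups for replicate 1 and in 1 of 3 for replicate 2, with overlapping intervals throughout.

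The high next to the edge was also uneven over these groups. Within 2 kb of islands of replicate 1 lay 16 regions of the lowest score quintile, 49 of the second, 35 of the third, 32 of the fourth and 30 of the highest. For replicate 2 the counts were 10, 28, 15, 14 and 10. The narrowest width quintile had 16 and 10 regions there, the second narrowest 44 and 26, and the widest 22 and 6. Densities within 2 kb and at 5 to 20 kb were then compared, here with regions placed by their nearest end and without those that overlap an island. Over all regions the ratio of the first to the second was 1.64 and 1.58. Regions of the lowest score quintile and of the narrowest quintile had no higher density within 2 kb, with ratios of 0.933 for score in both libraries and of 0.894 and 0.823 for width. For islands of replicate 2 the widest quintile had a ratio of 0.840 and the highest score quintile one of 1.0.

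**Figure D4:**
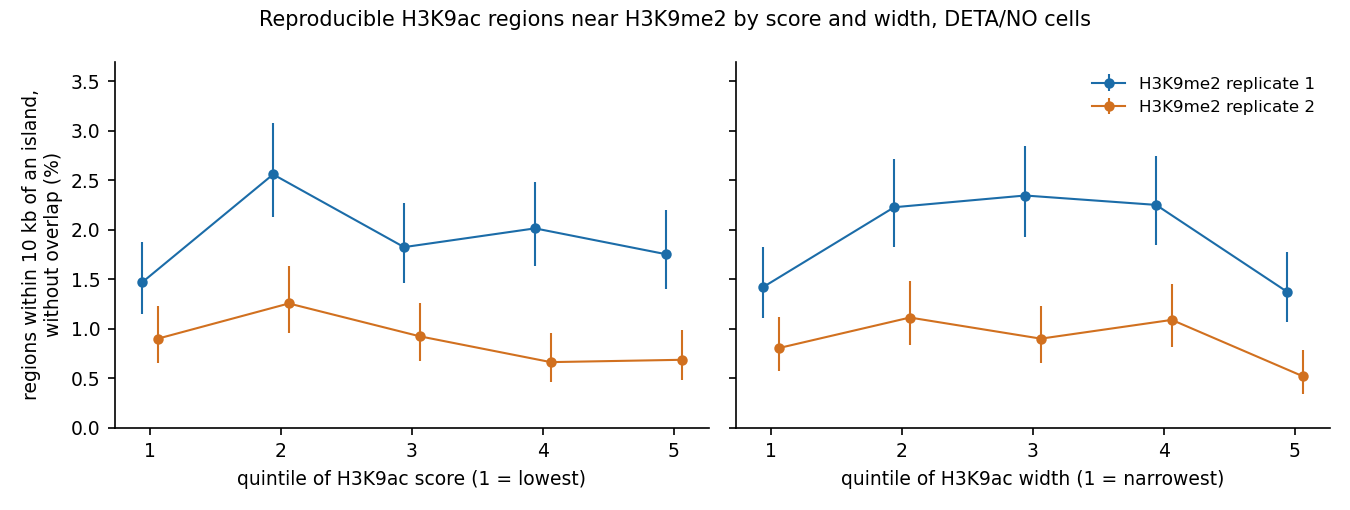
Percent of reproducible H3K9ac regions within 10 kb of an island without overlapping it, by quintile of score (left) and width (right), with Wilson 95% intervals and 1 line per H3K9me2 replicate. The second score quintile is highest for both, at 2.56% and 1.26%, and the widest quintile is lowest for both, at 1.37% and 0.521%.

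Over all scores, H3K9ac peaks without support from the other replicate met islands more often than supported ones, though most met none. A peak was called supported when it shared at least 1 bp with a peak of the other treated H3K9ac library. In H3K9ac replicate 1, 46557 of 79520 peaks (58.5%) were in that library alone, and in replicate 2, 27657 of 69089. Of the peaks in a single library, 1.10% ± 0.264 overlapped an island in replicate 1 and 7.47% ± 0.0920 in replicate 2 (SD, n = 2 island libraries). Of the supported peaks, 0.147% ± 0.0279 and 0.0941% ± 0.0102 did. The difference in share was 4.16 percentage points on average over the 2 H3K9ac libraries, but 0.955 points for replicate 1 and 7.37 for replicate 2, and which of the 2 is taken thus sets its size.

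Peaks in a single library scored lower and were narrower than supported ones, so the shares were also compared within quintiles of score of each library. In H3K9ac replicate 2 the share for single-library peaks fell from 8.77 and 8.85% in the lowest quintile to 4.83 and 5.94% in the fourth, against islands of replicates 1 and 2. Supported peaks stayed between 0.0545 and 0.183% in all 5 quintiles. In H3K9ac replicate 1 single-library peaks went from 2.03 and 1.47% in the lowest quintile to 0.202 and 0.129% in the fourth. There, supported peaks of the same quintile had 0.134 and 0.153%, within the intervals of the single-library peaks. Only 55 and 22 peaks of the highest quintile were in a single library, none of which met an island. These allow shares of up to 6.53% and 14.9% (upper Wilson bounds).

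**Figure D5:**
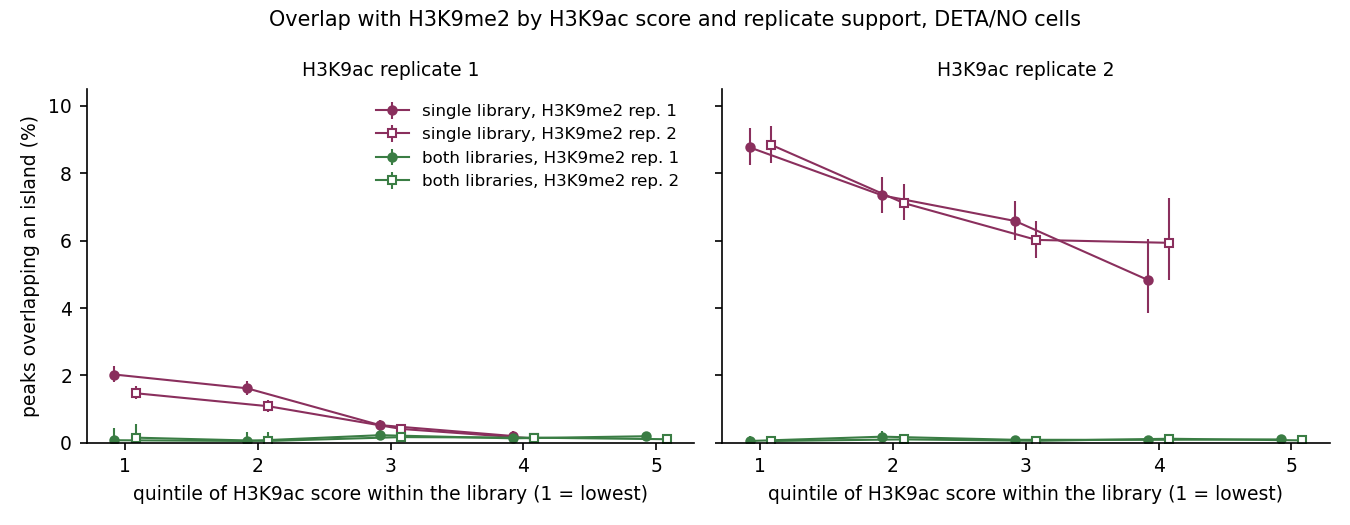
Percent of H3K9ac peaks overlapping an island by quintile of score within each H3K9ac replicate, for peaks in a single library and peaks in both, with Wilson 95% intervals and 1 symbol per H3K9me2 replicate. Single-library peaks of replicate 2 lie between 4.83 and 8.85%, while peaks in both libraries stay near 0; the highest quintile of single-library peaks, with 55 and 22 peaks, is not drawn.

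By density, the contrast between islands and the far zone was smallest for the single-library peaks of H3K9ac replicate 2. They had 7.25 and 8.99 midpoints per Mb inside islands of replicates 1 and 2, against 10.4 and 10.1 in the far zone, so 0.694 and 0.893 of the far density. The single-library peaks of H3K9ac replicate 1 had 0.0983 and 0.0906 of their far density inside. Supported peaks had between 0.00553 and 0.0101 for all 4 pairs of libraries. At the edges, supported peaks had 0.112 to 0.183 of the far density and single-library peaks 0.172 to 0.789. For single-library peaks of H3K9ac replicate 2 and islands of replicate 2, the 8.99 per Mb inside lay above the 7.94 per Mb at the edges.

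The single-library peaks with midpoints inside islands were weak and narrow. Their median score was 1.33 in H3K9ac replicate 1 and 1.45 and 1.49 in replicate 2, and their median widths lay between 113 and 116 bp. Single-library peaks in the far zone had medians of 1.91 and 1.59 for score and 160 and 118 bp for width. Of those inside islands, 3.09 to 4.62% met a peak of an untreated H3K9ac library, against 6.47 to 8.41% of those in the far zone. They lay a median of 4.24 to 6.15 kb from the nearest edge of their island.

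H3K9ac within islands was also counted by whether 1 or both island libraries held the bases. For the reproducible set, bases called as island in both libraries held 3 midpoints in 128 Mb, those of replicate 1 alone 7 in 156 Mb and those of replicate 2 alone 14 in 97.8 Mb. Peaks of H3K9ac replicate 1 were at 1.64 per Mb in the shared bases, below the 2.64 and 2.49 per Mb of the bases called in replicate 1 or 2 alone. Peaks of H3K9ac replicate 2 were at 8.69 per Mb in the shared bases, between the 6.26 and 9.71 per Mb of the bases called in 1 library. From the narrowest to the widest quintile of islands, peaks of H3K9ac replicate 2 went from 6.55 to 8.13 per Mb in islands of replicate 1 and from 8.88 to 9.72 in those of replicate 2. Peaks of H3K9ac replicate 1 went the other way between these ends, from 2.89 to 2.01 and from 2.54 to 2.09. Neither replicate rose or fell evenly over the quintiles. In islands of replicate 2 the middle quintiles had 1.77 to 1.96 per Mb for H3K9ac replicate 1, below both ends.

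Compared with untreated cells, the treated libraries had smaller shares of peaks in islands, and the design cannot carry this past the threshold of a test. With each H3K9ac library set against both island libraries of its own condition, the share was 0.706 and 3.05% in the treated libraries and 7.34 and 6.50% in the untreated ones. The means were 1.88% ± 1.65 and 6.92% ± 0.594 (SD, n = 2), a difference of -5.05 percentage points (exact permutation test, two-sided, p = 0.333, the smallest that 2 libraries against 2 allow). The groups did not overlap. Set against the 2 untreated island lists instead, treated H3K9ac replicate 1 had 0.674 and 0.699% and replicate 2 had 3.13 and 3.04%. Against the treated island lists these were 0.824 and 0.589%, and 3.08 and 3.01%. The treated shares thus stayed low with either set of islands. The H3K9ac lists also differed in size, with 79520 and 69089 treated and 120521 and 59678 untreated peaks. The cause of the difference was not tested. The log2 ratio of edge to far density was -2.51 and -1.47 in treated and -0.37 and -0.43 in untreated libraries, a difference of -1.59 (exact permutation test, two-sided, p = 0.333).

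With the 20000 highest-scoring peaks of each library, a choice made after the data were seen, the shares in islands were 0.158 and 0.105% in treated and 1.54 and 1.80% in untreated libraries. The means were 0.131% ± 0.0371 and 1.67% ± 0.182 (SD, n = 2), so both shares and the gap between them in percentage points were smaller than over all peaks, while the treated share was a smaller part of the untreated one. The difference in log2 ratio was -0.39. Of the 21096 reproducible regions of the treated cells, 52 (0.246%) and 24 (0.114%) met islands of untreated replicates 1 and 2. Midpoints inside those islands numbered 40 and 16, or 0.170 and 0.0629 per Mb, against 10 and 17, or 0.0351 and 0.0751 per Mb, for the islands of their own condition. Of the 14351 reproducible regions of the untreated cells, 133 (0.927%) and 64 (0.446%) met islands of their own condition. Of the treated reproducible regions, 85 and 77 lay within 2 kb of the untreated islands without overlap, against 162 and 77 within 2 kb of the treated islands.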

How the data were processed

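Chromatin immunoprecipitation libraries of H3K9ac and H3K9me2 from MDA-MB-231 cells, 2 per mark and condition, were compared as called intervals on hg19. Tools listed in the submitters' processing notes are BWA 0.7.5, MACS2, Picard, SICER and Trimmomatic 0.32. Their settings, the role of each tool and the use of inputs were not given in the sources used here. For each interval the authors deposited a score, from 0.3 upward for H3K9ac peaks of single libraries and from 5.00 for H3K9me2 islands of single libraries. The authors' reproducible set was made from both H3K9ac libraries, and its deposited score is taken to be −log10 of the irreproducible discovery rate, since its lowest value, 1.30, equals a rate of 0.05. Scores were used for ranking inside a list and nothing else.

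Islands lie on a grid of 500 bp, and 1 bp was added to their ends. Intervals off chromosomes 1 to 22 and X were left out. Overlap was at least 1 bp. Distances run from the region's nearest end to the nearest island edge, and densities use region midpoints unless the text says otherwise. Positions are counted from 1. Computation used Python 3.11.15, pandas 2.3.3, numpy 2.4.6 and SciPy 1.17.1, and the interval code was tested on simulated intervals. Wilson intervals are at 95%. Conditions were compared by exact permutation over the 4 H3K9ac libraries, so p-values rest only on how these 4 values separate by condition. Each value is a mean over both island libraries of its condition, so differences between island libraries do not enter the p-values. No label ties a replicate number to a shared batch or day.

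The regions and rules were chosen with earlier results of these data known. Loci named are all reproducible regions that met islands of both libraries, the 10 highest-scoring within 2 kb of an island in both without overlap, the 5 widest with islands within 10 kb on both sides in both, and the 5 widest shared island stretches without an H3K9ac peak. Alternatives covered the overlap rule, the zones, the island sets, the score filter, covered bases and each library in turn. No genes are named and the gene lists that were planned were not used, because no annotation on hg19 was used here. For the same reason no sequence is shown.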

Additional observations from a re-analysis of the deposited data

How the results depend on the processing

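The share of reproducible H3K9ac regions in islands, 0.140%, was 0.0640% for midpoints inside islands and for regions mostly covered by islands, 0.0284% for islands of both libraries, 0.251% for those of either, 0.0830% for the higher-scoring islands (above the median), 0.249% with islands closer than 10 kb joined, 0.706% and 3.05% for peaks of H3K9ac libraries 1 and 2, and 0.0830% and 0.0706% without chromosome 6 and without chromosomes 6 and 8. The edge to far ratio, 0.160, was 0.360 for peaks of H3K9ac library 2, and 17 other settings gave 0.111 to 0.197. The inside to far ratio, 0.00570, was 0.0154 with islands joined, 0.0580 and 0.280 for H3K9ac libraries 1 and 2, and 0.00245 for H3K9ac regions scoring above the median. The difference between the lowest and highest score quintile in the share within 10 kb, -0.0353 percentage points, turned positive without H3K9me2 replicate 1 (0.213; without replicate 2 it was -0.284) and for peaks of H3K9ac library 1 (0.468) and library 2 (2.93). The cause of these shifts was not tested, and settings that leave out chromosomes were chosen after seeing the data.

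Leaving out 1 library at a time gave 0.109 to 0.171% for the share in islands, 0.123 to 0.197 for the edge to far ratio, 0.00352 to 0.00788 for the inside to far ratio, and 0.955 to 7.37 percentage points for the difference between single-library and supported peaks, lowest without H3K9ac replicate 2 and highest without replicate 1. For treated minus untreated it gave -6.22 to -3.88 percentage points for the share and -2.11 to -1.08 for the log2 ratio. With the replicate number as a block these differences were -5.05 and -1.59, with an exact paired p of 0.5, the smallest that 2 pairs allow. Every setting run kept the sign of both differences between conditions. The depth of the libraries is unknown, and with 2 libraries per group no p below 0.333 can be reached.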
